A study of Mus musculus with 96 samples.

Results

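Chromatin accessibility in hepatocyte nuclei of 4 mice fasted for 24 h was set against that of 4 mice fasted for 16 h, 8 of the 96 samples of the series, chosen by their labels alone. The nuclei were isolated by INTACT, in which a tag on the nuclei of 1 cell type lets them be captured on beads. They were assayed by ATAC-seq, in which a transposase cuts open chromatin so that reads gather at accessible sites (peaks). All mice were female HEP-INTACT animals, and their strain, age and the promoter that drives the nuclear tag are not given in the sources used here. Food was withdrawn at ZT12, when mice become active, so the mice fasted for 24 h were taken at ZT12 and those fasted for 16 h at ZT4. Fed mice ate ad libitum, with 4 taken at 24 h and 4 at 16 h. Hours of fasting and time of day cannot be told apart within fasted mice. The change in fed mice is therefore given beside the fasted one, and the fasted change minus the fed change was tested as well. A further 16 hepatocyte libraries, at 3 and 8 h (ZT15 and ZT20), entered the estimate of the spread and the time courses. The 64 macrophage samples were not used.

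A fasting liver stops storing fuel and supplies it: it breaks down glycogen, makes glucose from amino acids and lactate, passes the freed nitrogen to urea, and burns fatty acids to ketone bodies. Glucagon and glucocorticoids drive much of this through CREB, FOXO and the glucocorticoid receptor, which act at enhancers already held open by liver factors such as HNF4A, FOXA and C/EBP. Many of the same sites follow the day, since the clock proteins BMAL1 and CLOCK, their PER, CRY and REV-ERB repressors, and the PAR bZIP factors DBP, TEF and HLF cycle in liver. Glucocorticoids in nocturnal rodents rise towards the active phase.

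The deposited table lists 46832 peaks of 200 bp, and the 46827 whose mean reached 10 normalized reads were tested. A normalized read is a read divided by 1 factor per library. Changes are log2 differences of normalized reads + 2, which understates the change of peaks with few reads, and are given ± SE. Levels are means ± SD of 4 mice. A change was called at an adjusted p under 0.05 (limma across all tested peaks, Benjamini-Hochberg). Peaks carry the name of the nearest transcription start site (TSS), with - for upstream and + for downstream of it in bp, and positions are on mm10. The name says nothing of which gene a peak controls. More open chromatin in every nucleus and an open site in more nuclei cannot be told apart in such libraries.

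The letters behind the changes could be read only at promoters, from RefSeq windows of 300 bp (250 before to 50 after the start) on GRCm38.p6, the mm10 assembly. Of 16351 tested peaks within 1 kb of a TSS, 8480 overlapped such a window by at least 100 bp. The sets of promoter sequences below are shown because of the pattern TTANNTAA. It is a loose form, with free middle letters, of the site bound by the PAR bZIP clock-output factors. It was found in the windows of 18 of the 106 peaks that were higher at 24 h in fasted mice (17.0%). Of the 395 lower peaks 12 had it in their window (3.04%), as did 3.17% of all 8480. Windows are counted by peak here and below, so a window under several peaks counts for each. The 18 include overlapping peaks of Fam120b and the promoters of the paralogs Ces1b, Ces1c and Ces1g. The first 4 promoters were chosen after values were seen, each with this pattern in capitals. The last 2 are promoters of list genes with the GC box GGGCGG in capitals. Sequences run 5′ to 3′ on the strand of the gene.
Ces1b, chr8:93079891-93080190, minus strand: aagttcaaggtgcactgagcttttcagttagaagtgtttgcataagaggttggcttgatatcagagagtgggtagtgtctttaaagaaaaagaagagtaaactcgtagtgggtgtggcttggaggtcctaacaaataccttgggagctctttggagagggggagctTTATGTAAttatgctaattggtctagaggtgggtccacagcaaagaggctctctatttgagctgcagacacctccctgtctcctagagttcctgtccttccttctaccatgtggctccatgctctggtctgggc
Syne3, chr12:104998628-104998927, minus strand: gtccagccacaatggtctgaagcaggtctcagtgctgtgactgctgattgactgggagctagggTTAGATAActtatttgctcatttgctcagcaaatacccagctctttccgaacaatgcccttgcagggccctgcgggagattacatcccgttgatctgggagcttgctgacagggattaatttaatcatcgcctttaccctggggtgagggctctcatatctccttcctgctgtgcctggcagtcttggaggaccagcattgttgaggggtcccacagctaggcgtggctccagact
Hdgf, chr3:87906600-87906899, plus strand: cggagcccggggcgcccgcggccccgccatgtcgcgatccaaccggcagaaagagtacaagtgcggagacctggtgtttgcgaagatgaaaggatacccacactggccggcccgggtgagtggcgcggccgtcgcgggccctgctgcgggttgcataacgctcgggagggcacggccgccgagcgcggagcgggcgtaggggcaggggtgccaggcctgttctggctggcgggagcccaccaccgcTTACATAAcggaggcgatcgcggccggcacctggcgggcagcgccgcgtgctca
Map2k6, chr11:110478265-110478564, plus strand: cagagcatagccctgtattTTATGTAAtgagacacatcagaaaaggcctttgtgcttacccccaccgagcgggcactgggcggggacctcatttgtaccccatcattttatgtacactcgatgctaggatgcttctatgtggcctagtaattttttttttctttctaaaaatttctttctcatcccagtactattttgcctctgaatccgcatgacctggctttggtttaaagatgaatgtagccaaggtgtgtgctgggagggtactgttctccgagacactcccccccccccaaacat
Insig2, chr1:121327629-121327928, minus strand: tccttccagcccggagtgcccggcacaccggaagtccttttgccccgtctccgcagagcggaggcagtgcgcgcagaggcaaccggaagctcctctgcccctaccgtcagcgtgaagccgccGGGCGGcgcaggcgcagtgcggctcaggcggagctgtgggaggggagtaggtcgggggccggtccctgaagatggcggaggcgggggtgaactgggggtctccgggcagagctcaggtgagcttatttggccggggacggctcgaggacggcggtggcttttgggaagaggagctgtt
Tnfaip2, chr12:111442411-111442710, plus strand: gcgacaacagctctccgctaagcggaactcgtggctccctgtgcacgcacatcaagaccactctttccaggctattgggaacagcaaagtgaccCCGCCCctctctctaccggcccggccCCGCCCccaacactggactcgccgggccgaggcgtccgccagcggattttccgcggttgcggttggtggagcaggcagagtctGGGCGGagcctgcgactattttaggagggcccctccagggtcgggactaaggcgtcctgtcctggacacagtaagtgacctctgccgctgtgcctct

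All 4 matches to the PAR bZIP pattern lie inside their peak. The Ces1b promoter peak (Ces1b encodes a liver carboxylesterase, with close paralogs among which reads may be split) held 121, 137, 112 and 130.2 normalized reads in mice fasted for 24 h, against 44.9, 41.5, 49.7 and 69.0 in mice fasted for 16 h. The groups do not overlap, and the log2 change was 1.28 ± 0.13 (adjusted p = 5.92e-09, limma). In fed mice the same peak averaged 112 ± 7.91 at 24 h and 46.4 ± 3.51 at 16 h (log2 change 1.24, adjusted p = 4.59e-09), and the fasted and fed changes did not pass the test of their difference. At Syne3, which encodes a nuclear envelope protein, the fasted levels were 39.4 ± 6.29 at 24 h and 14.8 ± 3.09 at 16 h (log2 1.31 ± 0.18, adjusted p = 3.87e-06). At Hdgf, a growth factor gene, they were 61.3 ± 13.4 at 24 h and 27.5 ± 3.91 at 16 h (log2 1.08 ± 0.18, adjusted p = 3.29e-05). At the kinase gene Map2k6 they were 23.6 ± 9.48 at 24 h and 7.08 ± 2.92 at 16 h (log2 1.47 ± 0.25, adjusted p = 8.87e-05). All 3 were also called higher at 24 h in fed mice, with log2 changes of 0.97, 1.61 and 1.31, and none passed the test of the difference. In fed mice the pattern stood in 21 of 83 windows with a higher peak (25.3%) and in 26 of 1688 with a lower one (1.54%). It was in 6% of all 32851 promoter windows.

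Other letters were searched in the same windows. The GC box was in 48.1% of fasted higher, 67.1% of fasted lower and 71.3% of all windows with a promoter peak. The E-box CACGTG, bound by BMAL1 and CLOCK, was in 2.83%, 13.4% and 11.6%. The glucocorticoid receptor half-site AGAACA was in 19.8%, 12.4% and 11%. The full glucocorticoid receptor palindrome was in 3 of the 106 fasted higher windows (2.83%), 0 of the 395 lower ones and 0.259% of all. The C/EBP letters TTGCNNAA, which resemble the PAR bZIP pattern, were in 17.9%, 12.2% and 8.42%. Both strands were searched for 15 motifs. A match is a description of letters, not of binding. The peaks whose fasted and fed changes differ hold too few windows to describe (22 and 13).

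Libraries held 3721524 to 5143169 reads in peaks in mice fasted for 24 h and 3439192 to 4704988 in mice fasted for 16 h, against 3604095 to 5015493 and 3117114 to 4813340 in fed mice of 24 and 16 h. The 4 libraries of 24 h fasted mice correlated with each other at 0.945 to 0.964 (log2 values), and those of 16 h fasted mice at 0.866 to 0.925. The lowest of these belong to fasted 16 h replicate 3, which correlated with its group at 0.866 to 0.888. Counts are therefore also given without it, and without the other mice whose leaving out moved them most. The nuclei carried hepatocyte marks: all 16 hepatocyte markers had peaks within 50 kb (176 in all, summing to 13417 to 15017 normalized reads per mouse at 24 h and 11106 to 13378 at 16 h in fasted mice). Of 14 macrophage markers 3 had any peak (5 peaks, 244 to 266 reads at 24 h and 193 to 238 at 16 h), with none at Clec4f, Vsig4, Adgre1 or Marco. Peaks stood at 6 of 12 endothelial, 1 of 12 stellate, 3 of 8 cholangiocyte and 2 of 11 lymphocyte markers. Over these 5 lists 2 peaks were called higher and 6 lower in fasted mice, 4 of the 6 at cholangiocyte markers (11 peaks, 466 to 504 reads at 24 h and 505 to 608 at 16 h).

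Between 16 and 24 h of fasting 3487 peaks rose (7.45% of those tested) and 3963 fell (8.46%). The rises were the larger changes: 1129 of them reached 2-fold (2.41%), against 533 of the falls (1.14%). In 2402 of the rises (5.13% of tested peaks) and 2517 of the falls (5.38%) the values of the 4 mice of 24 h did not overlap those of 16 h. Counted without the test, 6.26% of peaks had no overlap upwards and 8.78% downwards. In fed mice over the same hours 2894 peaks rose (6.18%) and 5261 fell (11.2%), with 990 (2.11%) and 198 (0.423%) at 2-fold. Called fed changes without overlap made up 5.18% upwards and 8.44% downwards, and 7.15% and 14.8% without the test. Median log2 changes over all peaks were -0.07 in fasted and -0.13 in fed mice, and the split depends on the scaling. With each library centred on its median, 4249 rose and 2799 fell in fasted mice (60.3% of calls higher, against 46.8% as deposited), and 3399 rose and 2161 fell in fed mice (61.1% against 35.5%). Without fasted 16 h replicate 3 there were 3294 rises and 2930 falls in fasted mice. The fed falls numbered 2703 without fed 16 h replicate 3, and 3032 and 2973 without fed 24 h replicates 1 and 2.

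The fasted and fed changes had part of their peaks in common. Of the fasted rises 1290 were also called higher in fed mice (2.75% of tested peaks, 37.0% of the fasted and 44.6% of the fed rises). Of the fasted falls 844 were lower in fed mice (1.8% of tested peaks, 21.3% of the fasted and 16.0% of the fed falls). Most fasted changes had no call in fed mice, with 2174 rises (4.64%) and 3044 falls (6.5%). Opposite calls were few, with 23 peaks higher in fasted and lower in fed mice (0.0491% of tested peaks) and 75 the other way (0.16%). Across the 46827 peaks the 2 changes correlated at Pearson r = 0.48 and Spearman rho = 0.33, a description over peaks that share their libraries. The test of the difference called 577 peaks whose fasted change was above the fed one (1.23%) and 915 below it (1.95%). Of the 577, 355 rose in fasted mice without a call in fed mice, 160 fell in fed mice without a call in fasted mice, and 23 did both. Of the 915, 440 fell in fasted mice alone, 319 rose in fed mice alone and 75 did both. These counts rest on single mice more than the others: without fasted 24 h replicate 4 they were 270 and 476, and without fasted 16 h replicate 4 they were 1178 and 1687. The count above also fell to 364 without fasted 24 h replicate 1, 316 without fed 16 h replicate 2 and 377 without fed 24 h replicate 1 or replicate 2.

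**Figure D1:**
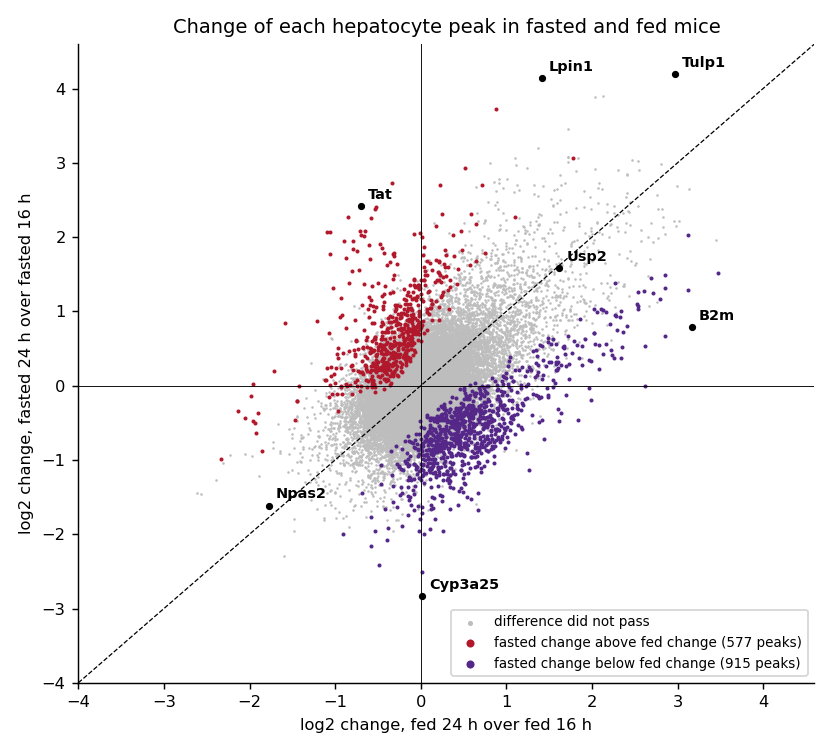
Change of each of the 46827 tested peaks in fasted mice (vertical axis, log2 change of 24 h over 16 h) against the change in fed mice of the same times (horizontal axis, log2). Grey points did not pass the test of the difference, red points (577) lie above and purple points (915) below the dashed line of equal change, and named black points are peaks described in the text.

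Largest rises and falls are given with 1 peak kept per gene, from called peaks whose fasted mice of 24 and 16 h did not overlap. The lack of overlap at these peaks was thus a condition of their choice, not a result. On that rule the 6 largest rises were distal or intronic peaks that were near 0 in mice fasted for 16 h. The largest lay in an intron of Fkbp5, a co-chaperone of the glucocorticoid receptor that glucocorticoids induce, although the nearest TSS is that of Tulp1 (chr17:28420223-28420423). It held 66.7, 72.03, 51.3 and 66.3 normalized reads in mice fasted for 24 h, against 0, 0, 5.61 and 3.49 in mice fasted for 16 h (log2 change 4.19 ± 0.56, adjusted p = 1.73e-06). All mice of 24 h were far above all mice of 16 h. In fed mice it held 23.9, 23.9, 19.05 and 24.5 at 24 h, against 0, 2.09, 1.97 and 1.06 at 16 h (log2 2.97 ± 0.56, adjusted p = 0.000308), a change in the same direction from which the fasted one did not differ past the threshold (adjusted p = 0.435).

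A peak at +55994 bp of Lpin1 (chr12:16533676-16533876), just past the end of the gene, came next. Lpin1 encodes lipin 1, a phosphatidate phosphatase of triglyceride synthesis that also acts as a coactivator in fasted liver. The peak held 61.2, 54.02, 35.7 and 63.03 reads in mice fasted for 24 h, against 0.864, 1.04, 1.60 and 0.873 in mice fasted for 16 h (log2 4.14 ± 0.49, adjusted p = 2.08e-07). The groups are wide apart, with each mouse of 16 h under 2 reads. Fed mice had 12.2, 11.9, 6.80 and 13.1 at 24 h, against 3.50, 4.18, 0.983 and 3.19 at 16 h (log2 1.41 ± 0.49), and here the fasted change was the larger one (difference 2.73 ± 0.69, adjusted p = 0.0219).

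The peak at -8268 bp of Ugt2a1, a glucuronosyltransferase gene (chr5:87499039-87499239), held 85.3, 87.2, 58.4 and 81.9 reads in mice fasted for 24 h, against 2.59, 1.04, 10.4 and 2.62 in mice fasted for 16 h (log2 3.90 ± 0.54, adjusted p = 3.44e-06). The highest mouse of 16 h is replicate 3 and still lies far below the mice of 24 h. An intronic peak of Zbtb16, a zinc finger transcription factor gene induced by glucocorticoids (chr9:48723463-48723663), held 44.04, 41.7, 27.3 and 25.4 reads at 24 h, against 0, 2.08, 4.81 and 0 at 16 h (log2 3.46 ± 0.46, adjusted p = 1.69e-06). Replicate 3 is again the highest of the mice fasted for 16 h, and the groups do not overlap. An intronic peak of Abcd4, which encodes a lysosomal transporter (chr12:84610338-84610538), held 80.5, 53.1, 55.8 and 36.8 reads at 24 h, against 5.18, 3.12, 8.01 and 3.49 at 16 h (log2 3.08 ± 0.38, adjusted p = 4.93e-07). An intronic peak of the receptor phosphatase gene Ptprj (chr2:90521988-90522188) held 83.95, 83.4, 39.6 and 52.4 at 24 h, against 4.32, 6.23, 9.62 and 3.49 at 16 h (log2 3.07 ± 0.51, adjusted p = 4.95e-05). In both, the mice of 24 h vary among themselves but none comes near a mouse of 16 h. All 4 of these peaks also rose in fed mice, by log2 2.12 ± 0.54, 1.73 ± 0.46, 1.72 ± 0.38 and 1.72 ± 0.51, and none passed the test of the difference.

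The smallest adjusted p among the 12 largest rises was that of a peak at -15773 bp of Alas1, which encodes the rate-limiting enzyme of haem synthesis. It averaged 99.8 ± 5.75 reads in mice fasted for 24 h and 10.4 ± 3.40 in mice fasted for 16 h (log2 3.07 ± 0.21, adjusted p = 1.96e-12), and 76.7 ± 10.3 at 24 h and 21.9 ± 7.63 at 16 h in fed mice. Both changes were called and the fasted one was the larger (difference 1.29 ± 0.30, adjusted p = 0.013). The other 5 of the 12 largest rises lay at Serpina3k (a serine protease inhibitor), Zhx3 (a transcriptional repressor), Rhbdd2, Fchsd2 and Slain2 (a microtubule protein), with log2 changes of 3.06 to 2.98. Slain2 rose in both feeding states (log2 2.98 ± 0.30 in fasted and 2.81 ± 0.30 in fed mice; difference 0.17 ± 0.43, adjusted p = 0.872), whereas at Serpina3k the fed change, 1.10 ± 0.58, was not called.

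The largest falls were smaller than the largest rises, and of the 12 named 2 were also called in fed mice. The largest, at +33543 bp of the cytochrome P450 gene Cyp3a25 (chr5:145975974-145976174), held 5.50, 7.58, 9.73 and 0.819 reads in mice fasted for 24 h, against 58.7, 57.1, 48.9 and 31.4 in mice fasted for 16 h (log2 -2.83 ± 0.36, adjusted p = 5.54e-07). Every mouse of 24 h was below every mouse of 16 h. Fed mice had 18.7 ± 5.01 at 24 h and 18.6 ± 5.23 at 16 h, and the difference passed (-2.85 ± 0.50, adjusted p = 0.00165). An intronic peak of Smagp, a small membrane glycoprotein gene (chr15:100632394-100632594), held 8.26, 9.48, 13.6 and 5.73 at 24 h, against 51.8, 43.6, 101 and 30.6 at 16 h (log2 -2.29 ± 0.31, adjusted p = 2.48e-06). Here replicate 3 is the highest mouse of 16 h, the groups do not overlap, and fed mice showed a called fall too (log2 -1.60 ± 0.31, adjusted p = 0.000495).

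The promoter of Rdm1, a gene linked to DNA repair (chr11:101627560-101627760), held 17.9, 20.9, 17.5 and 11.5 reads in mice fasted for 24 h, against 93.3, 67.5, 88.2 and 61.97 in mice fasted for 16 h (log2 -2.08 ± 0.22, adjusted p = 1.49e-08). The groups are well apart, and in fed mice the means were 60.2 ± 10.4 at 24 h and 79.1 ± 6.18 at 16 h, a change that was not called (difference -1.68 ± 0.31, adjusted p = 0.00194). A peak at +103635 bp of Rgs3, a regulator of G-protein signalling (chr4:62777509-62777709), held 7.57, 2.84, 6.49 and 4.91 at 24 h, against 26.8, 29.1, 39.3 and 16.6 at 16 h (log2 -1.99 ± 0.34, adjusted p = 6.35e-05). A peak at -23494 bp of Mical2, an actin oxidase gene (chr7:112202242-112202442), held 17.2, 18.96, 18.2 and 12.3 at 24 h, against 85.5, 42.6, 113 and 57.6 at 16 h (log2 -1.96 ± 0.23, adjusted p = 2.09e-07). In both the groups are apart, although the mice of 16 h spread more than those of 24 h. A peak at -8540 bp of the zinc finger gene Zfp655 (chr5:145223075-145223275) held 10.3, 16.1, 19.5 and 9.82 at 24 h, against 80.3, 55.1, 76.9 and 33.2 at 16 h (log2 -1.96 ± 0.28, adjusted p = 3.89e-06). None of these 3 was called in fed mice, and each passed the test of the difference (-2.03 ± 0.48, -1.43 ± 0.33 and -2.22 ± 0.39). The rest of the 12 largest falls lay at Asap2, Eln (elastin), Ahr (the dioxin receptor), Tmprss2, Cbfa2t3 and Wwc1, with log2 changes of -1.95 to -1.80. Of these only Asap2 also fell in fed mice (log2 -1.48 ± 0.34).

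**Figure D2:**
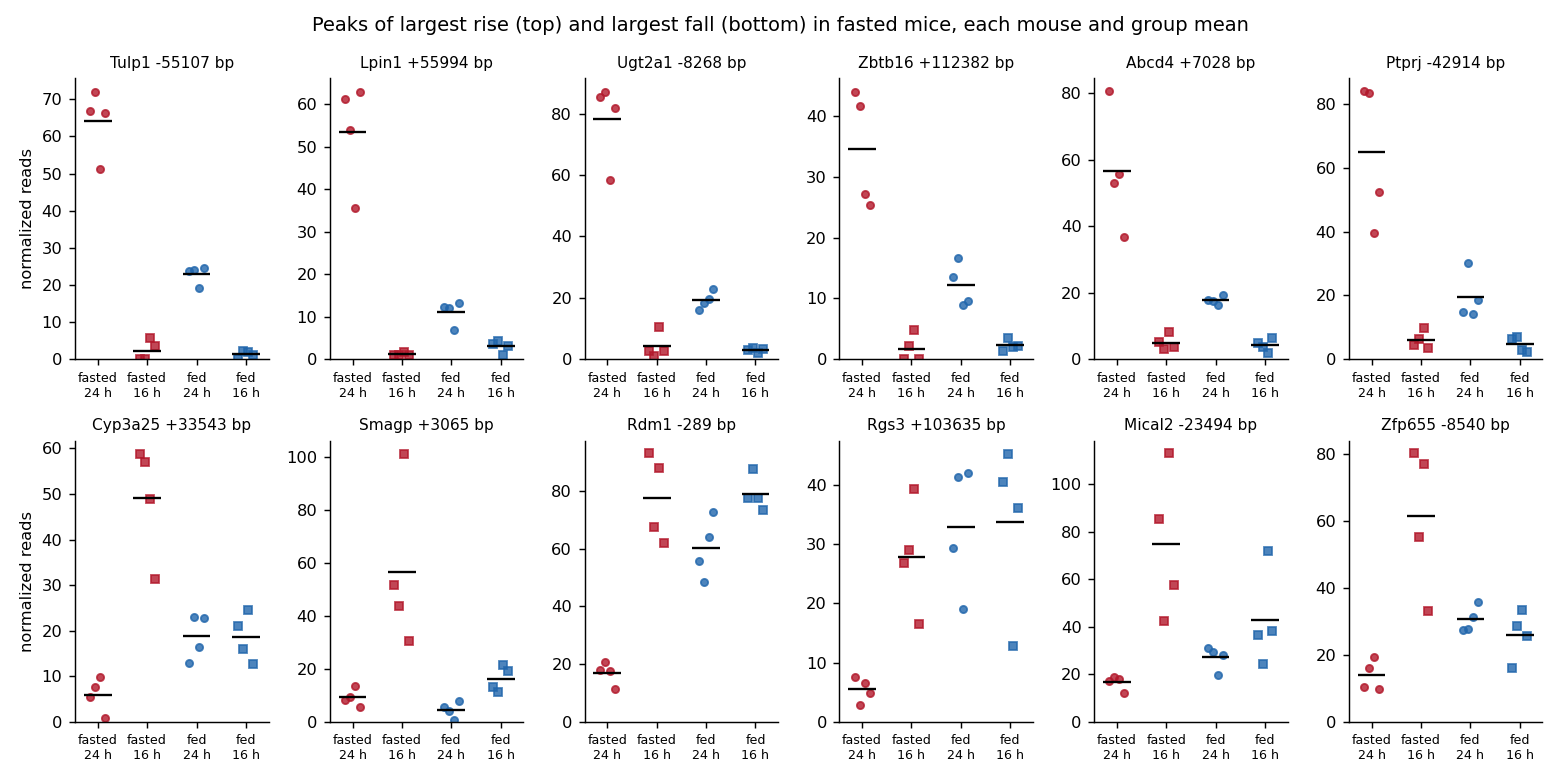
Normalized reads (vertical axes, from 0) of each mouse at the 6 peaks of largest rise (top row) and largest fall (bottom row) in fasted mice, 1 peak kept per gene, titled by nearest gene and distance. Red marks are fasted and blue marks fed mice, circles 24 h and squares 16 h, and black lines are group means. In each panel the fasted mice of 24 and 16 h do not overlap, which was a condition for choosing these peaks.

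Several genes had changed peaks at many places along their body. The gene bodies in RefSeq coordinates named here were singled out after their values were seen, so their counts are a description. Lpin1 had 24 tested peaks in its body, of which 20 rose and 0 fell in fasted mice, beside 10 rises and 2 falls in fed mice, and 4 passed the test of the difference upwards and 1 downwards. The sum over these peaks was 2088, 2118, 1912 and 2068 normalized reads in mice fasted for 24 h, against 684, 827, 1005 and 848 in mice fasted for 16 h. In fed mice it averaged 1338 ± 67.8 at 24 h and 979 ± 136 at 16 h. The sums of the times do not overlap in either feeding state, and the gap is wider in fasted mice. The Lpin1 promoter peak alone averaged 119 ± 25.9 in mice fasted for 24 h and 6.75 ± 3.47 in mice fasted for 16 h (log2 3.88 ± 0.39, adjusted p = 9.28e-09), against a fed change of 2.04 ± 0.39.

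Ass1, the argininosuccinate synthase of the urea cycle, had 22 peaks, of which 20 rose and 1 fell in fasted mice, 0 rose and 2 fell in fed mice, and 18 passed the test of the difference upwards. The sums were 1115, 950, 1052 and 1243 reads in mice fasted for 24 h, against 338, 710.5, 531 and 211 in mice fasted for 16 h. In fed mice they were 374, 543, 338 and 460.2 at 24 h, against 761, 849, 545 and 487 at 16 h. The fasted sums do not overlap between the times, whereas the fed ones do, with the lower mean at 24 h, and the fasted mice of 16 h spread widely. The neighbouring peak past the end of Ass1, assigned to Fubp3, moved with it (log2 2.26 ± 0.40 in fasted and -0.58 ± 0.40 in fed mice, difference 2.84 ± 0.56, adjusted p = 0.00377).

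Rises without a fall also ran along Zbtb16 (19 of 26 peaks), the transcription factor gene Klf13 (18 of 23), Mtss1 (14 of 31), the deubiquitinase gene Usp2 (9 of 12), Fkbp5 (5 of 11) and Alb, which encodes albumin (6 of 9). In fed mice the counts of rises were 7, 12, 7, 8, 5 and 0 in the same order, and the difference was called at 1 peak each of Zbtb16 and Klf13 and at 0 of the other genes' peaks. Itpr1, which encodes a calcium channel of the endoplasmic reticulum, had 15 rises and 1 fall among 35 peaks, beside 13 rises in fed mice. Falls ran along Asap2 (11 of 14), Sh3pxd2a (11 of 23) and Nav2 (11 of 35, with 1 rise), and in fed mice 6, 4 and 7 of these peaks fell.

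**Figure D3:**
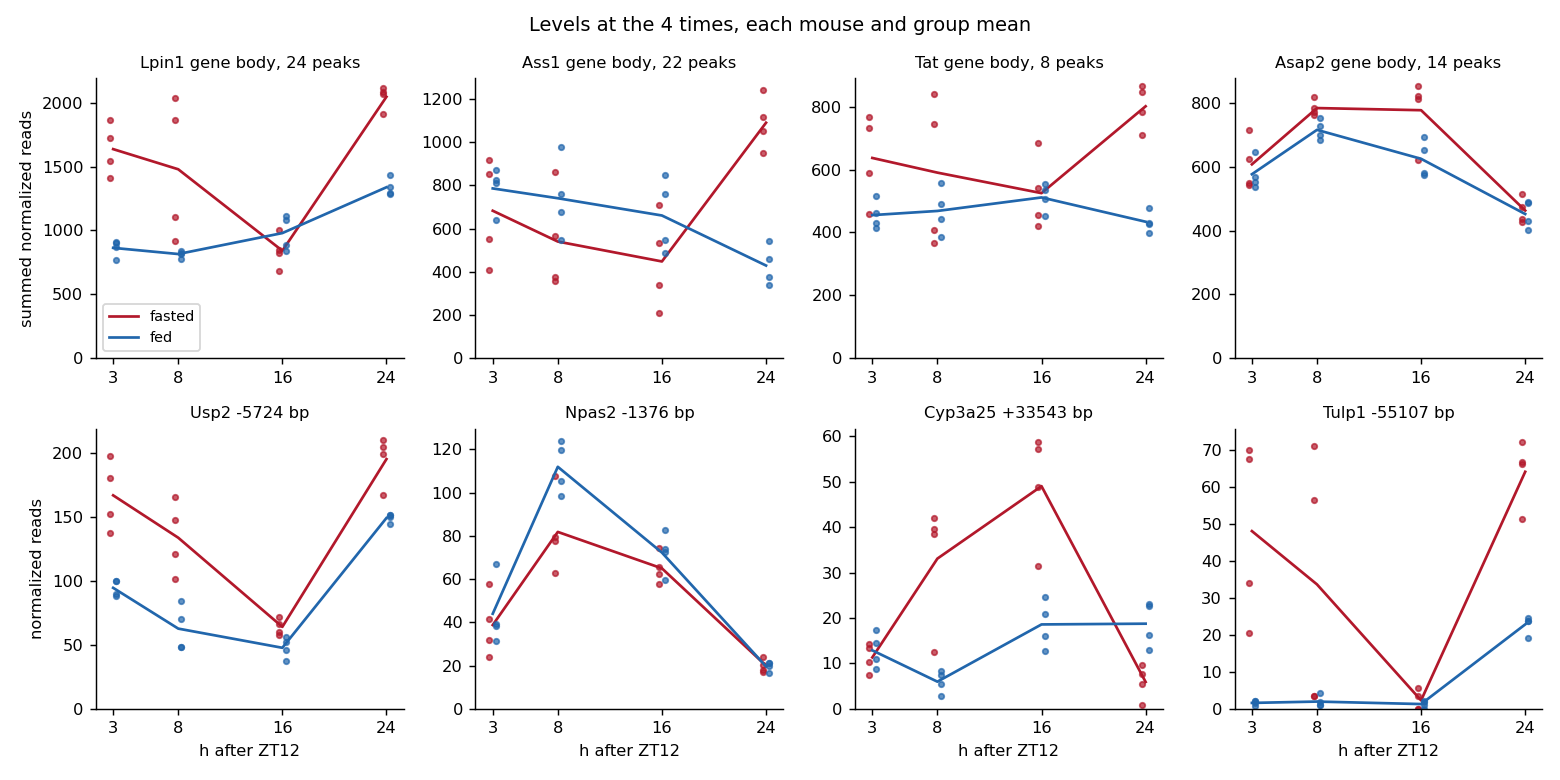
Levels at 3, 8, 16 and 24 h after ZT12 (horizontal axes, h) in fasted (red) and fed (blue) mice: summed normalized reads over the peaks in 4 gene bodies (top) and normalized reads of 4 single peaks (bottom), with a dot per mouse and lines through the group means. In Lpin1, Tat and the Tulp1 peak the fasted means are higher at 3 and 24 h than at 16 h, in Ass1 the fasted and fed means run in opposite directions after 16 h, and in Usp2 and Npas2 both feeding states change in the same direction.

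Genes of the glucocorticoid response had the highest share of rises among the 24 pathway lists. Of 187 peaks within 50 kb of these genes 66 rose (35.3%) and 3 fell in fasted mice, with a median log2 change of 0.28, beside 7.45% and 8.46% and a median of -0.07 over all tested peaks. In fed mice 18 rose and 11 fell (9.63% and 5.88%, beside 6.18% and 11.2% over all tested peaks; 12 and 7 without fed 16 h replicate 3). The count in fasted mice was 64, 61 and 56 rises without fasted 16 h replicate 3, without fasted 16 h replicate 4 and without fasted 24 h replicate 4. Of the list, Errfi1, a feedback inhibitor of EGF receptor signalling, had rises at 14 of 17 peaks in fasted mice and at 0 in fed mice, but the difference was called at 1 of the 17. Zbtb16 had rises at 8 of 13 and Tsc22d3, which encodes GILZ, at 8 of 20. The Zbtb16 promoter averaged 117 ± 3.73 reads in mice fasted for 24 h and 48.2 ± 2.26 in mice fasted for 16 h (log2 1.25 ± 0.18, adjusted p = 6.19e-06). An upstream peak of Tat, the tyrosine aminotransferase used as a classic glucocorticoid-induced gene, averaged 101 ± 8.34 at 24 h and 34.8 ± 12.5 at 16 h (log2 1.57 ± 0.22, adjusted p = 3.69e-06). The difference from the fed change was called at 8 peaks of the list upwards and at 2 downwards (20 and 1 without fasted 16 h replicate 3, 12 and 4 without fasted 16 h replicate 4, 5 and 2 without fasted 24 h replicate 4). Most of its rises thus did not pass as different from those of fed mice. Dusp1, Per1 and Sgk1, other targets of the receptor, had no called rise in fasted mice (0 of 9, 0 of 4 and 0 of 3 peaks).

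Gluconeogenesis genes had 34 rises and 4 falls among 143 peaks (23.8% and 2.80%), beside 10 and 9 in fed mice, and 7 differences upwards with 0 downwards. The falls were 1 without fasted 16 h replicate 3 or fasted 24 h replicate 4 and 7 without fasted 16 h replicate 4. Without fed 16 h replicate 3 there were 6 and 6 fed calls and 11 differences. Pck1, which encodes the cytosolic enzyme that turns oxaloacetate into phosphoenolpyruvate, had 7 of 12 peaks higher in fasted and 1 in fed mice, with 0 called differences. An intronic peak of Ppargc1a, the coactivator PGC-1α, averaged 63.5 ± 16.1 reads in mice fasted for 24 h and 7.27 ± 3.14 in mice fasted for 16 h (log2 2.85 ± 0.43, adjusted p = 1.3e-05). A peak in an intron of Foxo1, a transcription factor that insulin restrains, averaged 72.3 ± 8.58 at 24 h and 16.8 ± 6.61 at 16 h (log2 2.04 ± 0.24, adjusted p = 1.33e-07). Both rose in fed mice too, by log2 2.41 ± 0.43 and 1.997 ± 0.24. At G6pc, glucose-6-phosphatase, 1 of 17 peaks rose.

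The amino acid catabolism and urea cycle lists had fasted rises, and more differences from the fed change upwards than downwards. Of 278 peaks at amino acid catabolism genes 66 rose and 17 fell in fasted mice (23.7% and 6.12%). In fed mice 17 rose and 39 fell, a split that turned to 21 and 13 with median centring and was 11 and 23 without fed 16 h replicate 3. The fasted falls were 11 without fasted 16 h replicate 3 and 27 without fasted 16 h replicate 4. The difference was called upwards at 20 peaks (7.19%, beside 1.23% over all peaks) and downwards at 7. The urea cycle list also holds the amino acid carriers Slc7a2, Slc38a2, Slc38a3 and Slc38a4. Of its 125 peaks 34 rose and 5 fell in fasted mice, and 5 rose and 10 fell in fed mice. Slc38a4 had 8 of the 34 rises, Slc7a2 and Ass1 7 each and Arg1 6. The urea cycle enzyme gene Cps1 had 1 rise and 3 of the 5 falls. In this list 17 peaks passed the difference upwards (13.6%) with 1 downwards. Without fasted 24 h replicate 4 the amino acid and urea cycle lists had 12 and 7 differences upwards. Peaks nearest to Ass1 were 6 of the 17, those nearest to the amino acid carriers Slc7a2 and Slc38a4 3 each, and those nearest to Arg1, the arginase that releases urea, 2. A set of 22 peaks nearest to the predicted gene Gm5424 had the same counts as the Ass1 body, with 18 differences upwards. They are not in the urea cycle list. Arg1 had 6 of 12 peaks higher in fasted mice and 0 in fed mice. Some differences came without a fasted rise: Cbs, Fah and Slc38a3 had 2 each upwards, with 0 fasted rises and 7, 3 and 3 fed falls. The Ass1 promoter averaged 62.2 ± 6.66 reads in mice fasted for 24 h and 31.7 ± 8.81 in mice fasted for 16 h (log2 0.96 ± 0.14; fed change 0.10 ± 0.14; difference 0.86 ± 0.19, adjusted p = 0.00965). Slc38a2, which takes up alanine and glutamine, rose at an upstream peak in both feeding states (log2 1.88 ± 0.25 in fasted and 1.76 ± 0.25 in fed mice), as did an intronic peak of Etnppl, a phospholyase gene (2.43 ± 0.30 and 1.55 ± 0.30).

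Of the 8 largest positive differences, 1 peak kept per gene, 3 carry the names of amino acid enzymes. A peak in the 3′ UTR of Tat held 144, 135, 106 and 106 reads in mice fasted for 24 h, against 10.4, 34.3, 48.9 and 10.5 in mice fasted for 16 h (log2 2.42 ± 0.50). Fed mice had 21.4, 49.3, 21.1 and 46.4 at 24 h, against 77.6, 78.8, 32.4 and 40.4 at 16 h (log2 -0.70 ± 0.50, not called). The fasted mice of 24 h stand above all the others, and the difference was 3.12 ± 0.70 (adjusted p = 0.00979). At a peak downstream of Sds, serine dehydratase, within the neighbouring Plbd2, fasted mice averaged 38.8 ± 3.03 at 24 h and 7.45 ± 5.56 at 16 h, fed mice 12.4 ± 5.67 at 24 h and 23.6 ± 9.73 at 16 h (difference 3.11 ± 0.61, adjusted p = 0.00365). At a peak downstream of Got1, the cytosolic aspartate aminotransferase, in the 3′ UTR of Cnnm1, they averaged 44.96 ± 11.4 at 24 h and 10.1 ± 6.28 at 16 h, and in fed mice 11.3 ± 7.22 at 24 h and 18.1 ± 6.17 at 16 h (difference 2.79 ± 0.55, adjusted p = 0.00378). Sds had 4 of 5 peaks higher in fasted mice, 3 of them with a called difference. The other large differences upwards lay far upstream of Rhobtb1 (3.06 ± 0.68), downstream of Etnk2 in Sox13 (2.74 ± 0.61), at a second peak past Lpin1 (2.84 ± 0.75) and upstream of Alb (2.47 ± 0.70). The last 2 passed narrowly (adjusted p = 0.0278 and 0.0436): leaving out single mice took Lpin1 to between 0.0582 and 0.0639 in 5 cases and Alb to between 0.0628 and 0.112 in 10, and edgeR gave 0.122 for Lpin1.

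Genes that mark hepatocytes had more rises in fasted than in fed mice. Of the 176 peaks at hepatocyte markers 43 rose and 11 fell in fasted mice, and 4 rose and 21 fell in fed mice. The fasted shares were 24.4% and 6.25%, beside 7.45% and 8.46% over all tested peaks, and the fed ones 2.27% and 11.9%, beside 6.18% and 11.2%. The fed falls numbered 11 with median centring and 13 without fed 16 h replicate 3, and the fasted falls 7 without fasted 24 h replicate 4. The difference was called at 18, all upwards (10.2%, beside 1.23%). Of the 18, 6 are nearest to Apoa1, 6 to Ass1, 4 to Tat and 2 to Alb. Peaks nearest to Gm5424 are not in this list either. An exonic peak of Apoa1, the main protein of HDL, averaged 118 ± 7.54 reads in mice fasted for 24 h and 43.2 ± 8.14 in mice fasted for 16 h (log2 1.43 ± 0.16, adjusted p = 4.62e-08), against 68.9 ± 15.9 at 24 h and 68.2 ± 13.3 at 16 h in fed mice (difference 1.42 ± 0.22, adjusted p = 0.0005). Of 19 peaks nearest to Apoa1 10 rose in fasted mice and 1 in fed mice.

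Clock genes had calls in both feeding states. Over all tested peaks 7.45% rose and 8.46% fell in fasted mice, and 6.18% and 11.2% in fed mice. Clock output genes had 21 rises and 4 falls among 89 peaks in fasted mice (23.6% and 4.49%). They had 17 and 9 in fed mice (19.1% and 10.1%), with a difference at 1 peak. Clock repressors had 7 rises and 4 falls among 63 peaks in fasted mice (11.1% and 6.35%). In fed mice they had 9 and 12 (14.3% and 19.0%), or 12 and 4 with median centring. Clock activators had 4 and 5 among 30 in fasted (13.3% and 16.7%) and 4 and 7 in fed mice (13.3% and 23.3%). The differences called among repressors and activators were 1 and 0. Over all tested peaks 3.19% had a called difference. Without fasted 16 h replicate 4 the difference was called upwards at 4 and downwards at 1 of the output peaks and downwards at 3 of the repressor peaks. The fasted repressor falls were 2 without fasted 16 h replicate 3 and 7 without fasted 16 h replicate 4, and the fed ones 5 without fed 16 h replicate 3. At an intronic Usp2 peak (-5724 bp) the levels were 195 ± 19.4 in mice fasted for 24 h and 63.99 ± 6.25 in mice fasted for 16 h (log2 1.58 ± 0.15), and 149 ± 3.44 at 24 h and 47.7 ± 8.20 at 16 h in fed mice (log2 1.62 ± 0.15; difference -0.04 ± 0.21). The peak upstream of Npas2, a partner of BMAL1, fell by 1.61 ± 0.19 in fasted and 1.78 ± 0.19 in fed mice on the log2 scale. Promoter peaks of Ciart and Per3, repressors of the clock, rose by 2.16 ± 0.28 and 1.495 ± 0.25 in fasted mice and by 1.37 ± 0.28 and 2.21 ± 0.25 in fed mice. That of Coq10b rose by 2.04 ± 0.17 and 1.27 ± 0.17. None of these 5 passed the test of the difference, with adjusted p of 0.0698 at Coq10b and higher at the others. The repressors split by gene: the 7 fasted rises lay at Ciart (4), Per3 (2) and Per2 (1), and the 4 falls at Nr1d1 and Cry2 (2 each). In fed mice Nr1d1, a REV-ERB gene, had 5 of 6 peaks lower, and Nr1d2 and Bhlhe40 had 2 each.

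**Figure D4:**
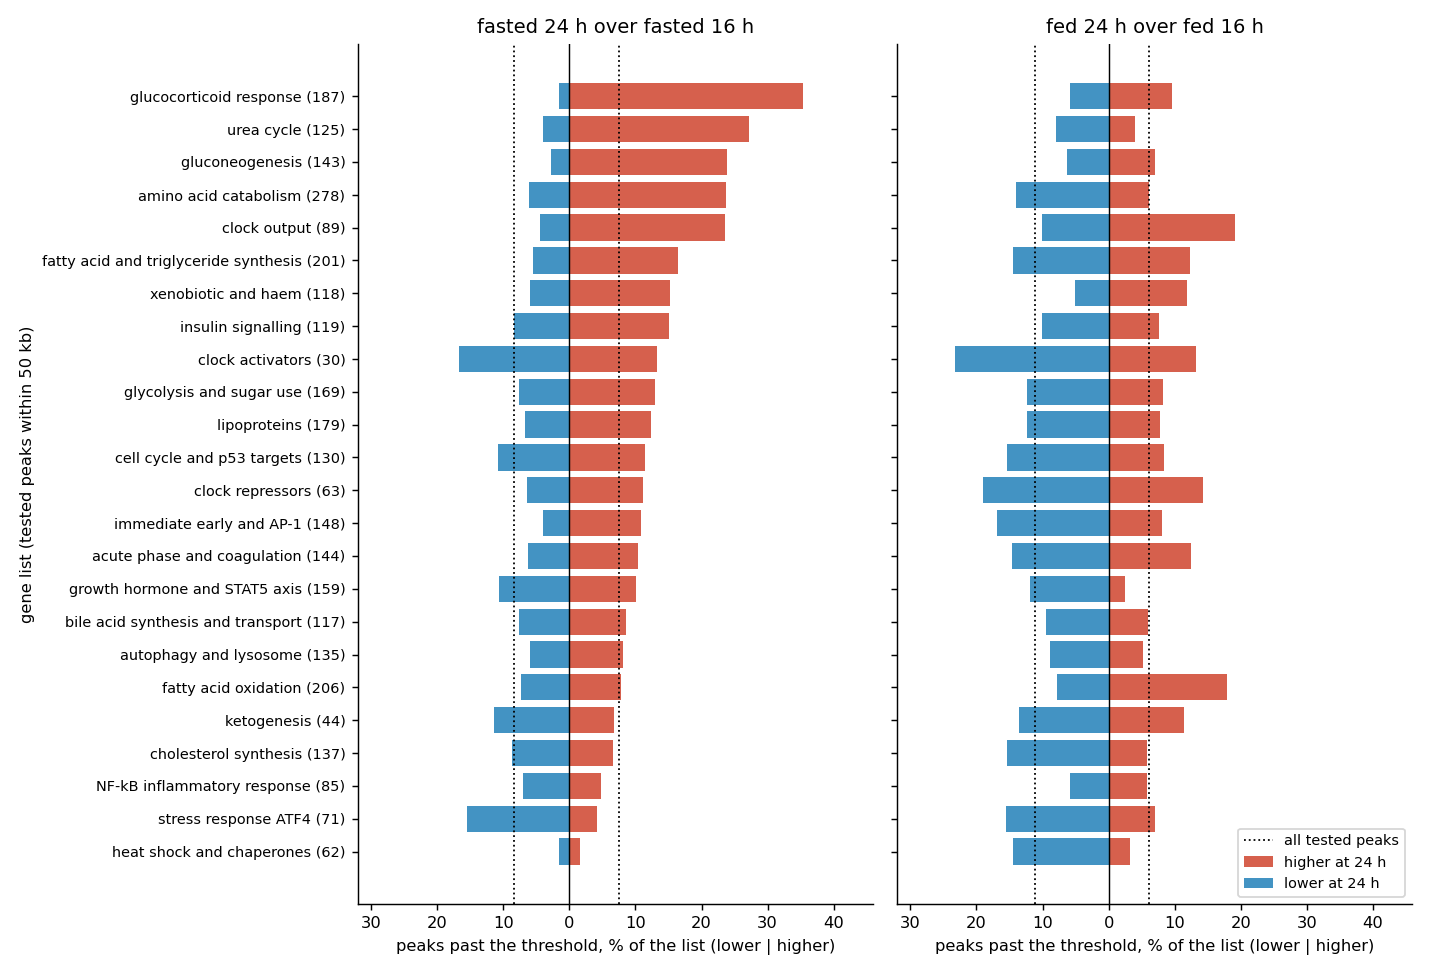
Share of each list's peaks (number in brackets) that were called higher (red, to the right) or lower (blue, to the left) at 24 h in fasted mice (left panel) and fed mice (right panel), in percent. Dotted lines mark the shares over all tested peaks; glucocorticoid response lies furthest above the line for rises in fasted mice, followed by urea cycle, gluconeogenesis, amino acid catabolism and clock output, and clock output and fatty acid oxidation lie furthest above it in fed mice.

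Lipid genes split by pathway. Fatty acid oxidation, with 206 peaks, had 16 rises and 15 falls in fasted mice (7.77% and 7.28%), shares close to those over all peaks, while fed mice had 37 and 16 (22 and 10 without fed 16 h replicate 3). The difference was called downwards at 15 peaks and upwards at 2, although without fasted 24 h replicate 4 these were 7 and 1, and without fed 16 h replicate 3 they were 9 and 2. Pdk4, which shuts pyruvate out of oxidation, had 4 of 10 peaks lower in fasted mice and none higher. In fed mice 4 of its peaks were lower and 2 higher, and 1 difference was called, downwards. The named Pdk4 peak averaged 17.4 ± 2.79 in mice fasted for 24 h and 37.7 ± 4.06 in mice fasted for 16 h (log2 -1.04 ± 0.17, adjusted p = 5.1e-05). Cpt1a, the gate of mitochondrial oxidation, had 1 of 13 peaks higher in fasted and 2 in fed mice. A peak in Acsl1, an acyl-CoA synthetase, rose in fasted mice (0.70 ± 0.13) and not in fed mice (-0.06 ± 0.13; difference 0.76 ± 0.18, adjusted p = 0.0151). Ketogenesis genes had 3 rises and 5 falls among 44 peaks (6.82% and 11.4%, beside 7.45% and 8.46% over all tested peaks). The counts were 4 and 4 with median centring, 3 and 3 without fasted 16 h replicate 3 and 5 and 7 without fasted 16 h replicate 4.

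Fatty acid and triglyceride synthesis had 33 rises and 11 falls among 201 peaks in fasted mice (16.4% and 5.47%), beside 25 and 29 in fed mice (26 and 13 with median centring, 12 and 18 without fed 16 h replicate 3). The fasted falls were 6 without fasted 16 h replicate 3 and 17 without fasted 16 h replicate 4. Peaks nearest to Lpin1 are 16 of the 33 rises, and the median log2 change of the list was -0.05. Dgat2, which makes triglyceride, averaged 27.3 ± 7.47 reads in mice fasted for 24 h and 6.20 ± 1.40 in mice fasted for 16 h at its upstream peak (log2 1.82 ± 0.23), with 2.44 ± 0.23 in fed mice. Srebf1, the master regulator of fatty acid synthesis, had 3 of 11 peaks lower in fasted mice and Fasn 0 of 8 changed. In fed mice Srebf1 had 1 peak higher and Fasn 2 lower, and each gene had 1 difference called downwards. Cholesterol synthesis had 9 rises and 12 falls among 137 peaks (6.57% and 8.76%, beside 7.45% and 8.46% over all tested peaks). This list had 11 and 7 with median centring, 10 and 7 without fasted 16 h replicate 3 and 10 and 6 without fasted 24 h replicate 4. Its Sqle peak (squalene epoxidase) averaged 12.6 ± 5.25 at 24 h and 29.3 ± 7.17 at 16 h in fasted mice (log2 -1.14 ± 0.21, adjusted p = 0.000156). The peak at the Insig2 promoter printed above, which overlaps the window by 98 bp and does not hold the GC box, belongs to a gene whose protein holds back SREBP. It averaged 214 ± 12.1 at 24 h and 145 ± 28.1 at 16 h (log2 0.57 ± 0.11) against a fed change of -0.19 ± 0.11 (difference 0.77 ± 0.16, adjusted p = 0.00469). Lipoprotein genes had 22 rises and 12 falls among 179 peaks (12.3% and 6.7%). Differences there were 9 upwards and 3 downwards (10 and 7 without fasted 16 h replicate 4).

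The lists that follow stand beside 7.45% of all tested peaks that rose and 8.46% that fell in fasted mice. Insulin signalling genes had 18 rises and 10 falls among 119 peaks (15.1% and 8.4%), or 18 and 6 without fasted 16 h replicate 3. A peak of Pik3r1, the regulatory subunit of PI3-kinase, averaged 188 ± 25.4 in mice fasted for 24 h and 73.3 ± 5.44 in mice fasted for 16 h (log2 1.33 ± 0.20, adjusted p = 1e-05). Growth hormone and STAT5 genes had 16 and 17 among 159 (10.1% and 10.7%), near the shares over all tested peaks. Their counts were 17 and 15 with median centring and 13 and 10 without fasted 16 h replicate 3. An intronic peak of Bcl6, a repressor that opposes STAT5, averaged 12.1 ± 2.02 at 24 h and 49.4 ± 19.8 at 16 h in fasted mice (log2 -1.79 ± 0.26, adjusted p = 5.91e-06), and 19.99 ± 6.19 at 24 h and 20.2 ± 6.74 at 16 h in fed mice (difference -1.79 ± 0.37, adjusted p = 0.0049). Among ATF4 stress genes 3 peaks rose and 11 fell of 71 in fasted mice (4.23% and 15.5%), beside 5 and 11 in fed mice (2 and 9 without fed 16 h replicate 3). There the promoter of Fgf21, a fasting hormone of the liver, averaged 58.04 ± 14.3 at 24 h and 105 ± 16.7 at 16 h in fasted mice (log2 -0.85 ± 0.16), and 42.5 ± 3.97 at 24 h and 39.98 ± 7.78 at 16 h in fed mice (difference -0.95 ± 0.23, adjusted p = 0.0146). Heat shock and chaperone genes had 1 rise (Hspb1) and 1 fall (Bag3) among 62 peaks, 1.61% each, and 4 and 4 without fasted 16 h replicate 4. Fed mice had 2 and 9 (3.23% and 14.5%, beside 6.18% and 11.2% over all tested peaks), which became 2 and 1 with median centring or without fed 16 h replicate 3.

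In the remaining lists the fasted rises and falls were 18 and 7 of 118 for xenobiotic and haem genes, 22 and 13 of 169 for glycolysis and sugar use, and 15 and 14 of 130 for cell cycle and p53 targets. They were 16 and 6 of 148 for immediate early genes, 15 and 9 of 144 for acute phase and coagulation, 10 and 9 of 117 for bile acid genes, 11 and 8 of 135 for autophagy and lysosome, and 4 and 6 of 85 for NF-κB genes. Over all tested peaks 7.45% rose and 8.46% fell. The falls depend on single mice and on the scaling: without fasted 16 h replicate 3 they were 6 for cell cycle and 5 for acute phase genes, whose rises were then 20. Without fasted 16 h replicate 4 they were 13 for NF-κB and 14 for acute phase genes. With median centring cell cycle genes had 16 rises and 9 falls and bile acid genes 14 and 5. Single peaks stood out from their list. Klf15, a transcription factor that promotes amino acid breakdown in fasted liver, averaged 57.3 ± 12.2 at 24 h and 19.6 ± 14.4 at 16 h in fasted mice at -1079 bp (log2 1.67 ± 0.29) against a fed change of 0.22 ± 0.29 (difference 1.46 ± 0.41, adjusted p = 0.0425). The promoter peak of Baat, which conjugates bile acids, fell by 1.17 ± 0.23 on the log2 scale in fasted mice and had a fed change of 0.04 ± 0.23 (difference -1.21 ± 0.33, adjusted p = 0.0317). A peak at +20840 bp of Ctsl, cathepsin L, fell by 1.22 ± 0.20 against a fed change of 0.01 ± 0.20 (difference -1.23 ± 0.29, adjusted p = 0.0128). The Tnfaip2 promoter printed above, whose 3 GC boxes all lie in the peak, averaged 82.95 ± 7.93 at 24 h and 139 ± 22.7 at 16 h in fasted mice (log2 -0.72 ± 0.13, adjusted p = 0.000141) and fell in fed mice as well (-0.40 ± 0.13).

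Among the largest negative differences some came from a fasted fall and others from a fed rise. Cyp3a25 and Zfp655, given above, and an intronic peak of Tram1 (-1.67 ± 0.34 in fasted, 0.67 ± 0.34 in fed mice) fell in fasted mice without a called fed change. A peak upstream of B2m, which encodes the light chain of MHC class I, lies in an intron of Patl2. It held 6.88, 3.79, 4.54 and 4.09 reads in mice fasted for 24 h, against 0.864, 4.15, 0.801 and 2.62 in mice fasted for 16 h. Fed mice had 26.9, 27.8, 27.2 and 27.1 at 24 h, against 0.699, 1.39, 0.983 and 2.13 at 16 h. Only the fed mice of 24 h stand apart (fed log2 3.17 ± 0.36, adjusted p = 4.14e-08; difference -2.38 ± 0.51, adjusted p = 0.00673). Peaks upstream of Vcam1, an adhesion molecule gene, and of Epor, the erythropoietin receptor gene, likewise rose in fed mice (2.62 ± 0.36 and 1.84 ± 0.32) with fasted changes of 0.002 ± 0.36 and -0.46 ± 0.32 that were not called. A peak far from Klf4 was called in both, -1.13 ± 0.32 in fasted and 1.27 ± 0.32 in fed mice.

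Of the 6 peaks of smallest p with opposite calls in the feeding states, 4 fell in fasted and rose in fed mice. Upstream of Adamtsl4 fasted mice held 78.4, 82.5, 79.2 and 49.1 reads at 24 h, against 136, 109, 143 and 127 at 16 h (log2 -0.84 ± 0.15). Fed mice held 53.2, 49.3, 45.6 and 61.2 at 24 h, against 34.96, 35.6, 28.5 and 31.9 at 16 h (log2 0.64 ± 0.15). No mouse overlaps between the times in either feeding state, and the difference was -1.48 ± 0.21 (adjusted p = 0.000268). Peaks upstream of Jun (-0.68 ± 0.13 in fasted, 0.47 ± 0.13 in fed mice), at Slc27a2, a fatty acid transporter gene (-0.76 ± 0.16 and 0.46 ± 0.16), and in Slc15a5 (-0.85 ± 0.19 and 0.54 ± 0.19) had the same signs. Near Gcnt4 (1.002 ± 0.17 and -0.55 ± 0.17) and at the end of Neat1 (1.18 ± 0.26 and -0.93 ± 0.26) the peak rose in fasted and fell in fed mice.

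Changes in fasted mice were mostly away from promoters. Of 30476 peaks more than 1 kb from a TSS 3063 rose (10.1%) and 3191 fell (10.5%) in fasted mice, and of 16351 within 1 kb 424 rose (2.59%) and 772 fell (4.72%). With median centring the promoter counts turned to 584 rises and 419 falls, and without fasted 16 h replicate 3 they were 334 and 495. In fed mice the distal shares were 8.59% and 8.43%, and the promoter shares 1.69% and 16.5%. The fed promoter falls rest on the scaling and on single mice: with median centring 5.87% fell, and without fed 16 h replicate 3 6.58% did. The share of all reads that fell in promoter peaks was 47.9 ± 1.12% in mice fasted for 24 h and 48.6 ± 1.06% in mice fasted for 16 h (difference -0.70 points, two-sided exact permutation test, p = 0.371, n = 4 each). In fed mice it was 44.4 ± 0.90% at 24 h and 46.6 ± 1.18% at 16 h (-2.16 points, exact permutation p = 0.0286, the smallest that 4 against 4 allows).

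The 3 and 8 h mice, which are in neither side of the comparison, give the levels earlier in the fast. Since 3 h (ZT15) and 24 h (ZT12) are close in the day, hours of fasting and time of day cannot be told apart. In the 3487 peaks that rose, the median level per mouse averaged 56.7, 45.2, 30.4 and 58.9 normalized reads at 3, 8, 16 and 24 h in fasted mice, and 40.9, 38.0, 36.8 and 51.0 in fed mice. The fasted level at 3 h is thus near that at 24 h. The level at 16 h is the lowest, but these peaks were chosen for being lower at 16 h than at 24 h. In the 3963 peaks that fell the median level averaged 44.6, 57.4, 66.7 and 39.7 in fasted mice and 50.7, 53.2, 53.6 and 45.8 in fed mice. The highest fasted level is at 16 h, but these peaks were chosen for being higher at 16 h than at 24 h. The Tulp1 peak in Fkbp5 averaged 48.05, 33.6, 2.28 and 64.1 reads in fasted mice and 1.59, 1.95, 1.28 and 22.8 in fed mice. Cyp3a25 ran the other way in fasted mice, with 11.3, 33.1, 49.04 and 5.91.

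The peaks whose 2 changes differ followed another course in fed mice. Where the fasted change was above the fed one (577 peaks) the fasted averages were 63.4, 52.4, 41.0 and 70.2 at 3, 8, 16 and 24 h and the fed ones 53.8, 57.6, 67.8 and 53.8, with the lowest fasted and the highest fed average at 16 h. Where it was below (915 peaks) they were 44.5, 60.8, 59.2 and 37.4 in fasted and 42.6, 36.6, 29.7 and 45.3 in fed mice. The values at 16 and 24 h chose these sets, and those at 3 and 8 h did not. At 8 h the fasted mice split at some of these loci: the Zbtb16 body summed to 1165, 2641, 1283 and 2544 reads in the 4 mice, and the Lpin1 body to 915, 1863, 1104 and 2033, with the same 2 mice high in both.

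**Figure D5:**
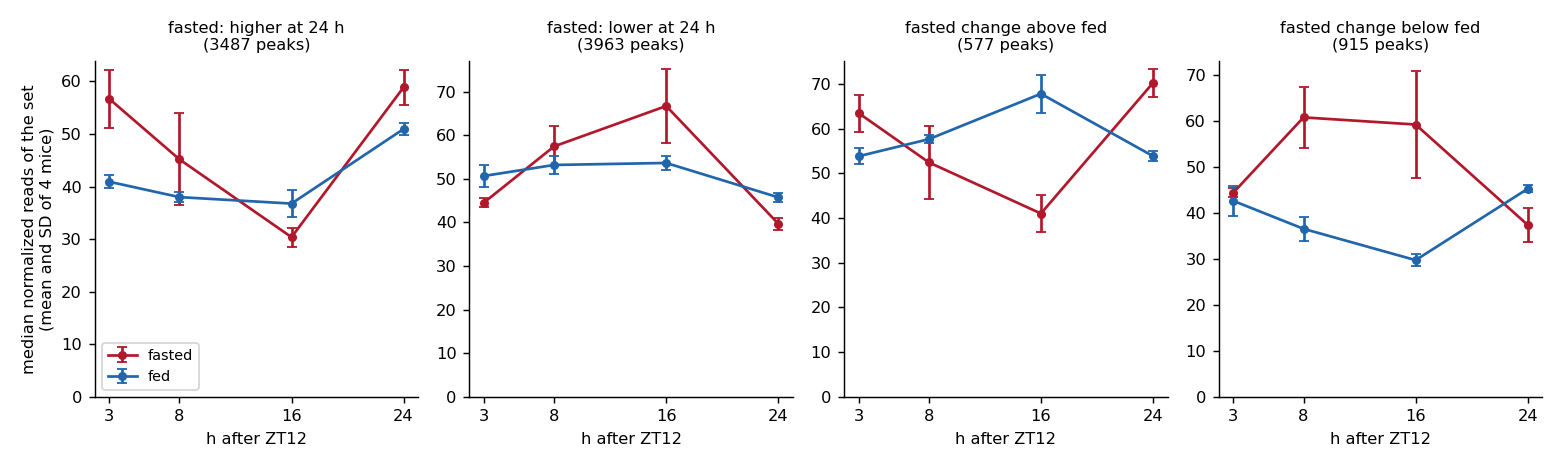
Median normalized reads (vertical axes, from 0) at 3, 8, 16 and 24 h after ZT12 over the peaks that rose or fell in fasted mice and over those whose fasted and fed changes differ, for fasted (red) and fed (blue) mice. Points and bars are the mean and SD of the medians of 4 mice; the sets were chosen on the 16 and 24 h mice, and in every panel the fasted averages at 3 and 24 h lie on the same side of that at 16 h.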

How the data were processed

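The hepatocyte ATAC-seq libraries came from bead-captured nuclei, transposed on the beads and sequenced in pairs, per the labels' protocols. The submitters' processing notes name BWA 0.7.5a-r405, SAMtools, HOMER, DESeq2 and mm10 without their roles. The deposited table holds a normalized signal that the authors made from reads per peak and 1 factor per library. Dividing by each library's smallest step gave whole reads for 100% of values (within 0.01 of a read). On these reads edgeR 4.0.16 called 3962 rises and 3160 falls in fasted mice. The main test was limma 3.58.1 (R 4.3.3) on log2(value + 2) with 8 group means over 32 libraries, a mean-dependent prior and Benjamini-Hochberg adjustment over 46827 peaks with a mean of at least 10 (5 were left out). The script was tested on simulated data. The labels give each library its own number, taken as 1 mouse, and p-values measure the spread between these libraries. No 2 libraries shared more than 3.43% of equal read counts.

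Named peaks are the 12 largest called rises and 12 falls without overlap of mice, up to 2 called peaks of smallest p per list, the 8 largest differences each way and the 6 clearest opposite calls, 1 peak per gene. The comparison, the 24 pathway lists and 6 marker lists (nearest TSS within 50 kb) were chosen with earlier results of these data known. Promoter windows are from RefSeq. Of the 8 largest negative differences 1 is not reported here, nor is 1 named peak of the lists. Reads without molecular identifiers are not independent molecules. Alternatives covered the offset, filter, scaling, tool, libraries fitted and each mouse left out.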

Additional observations from a re-analysis of the deposited data

Results flagged for a closer look

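In 304 groups of 4 mice (depth, promoter share and the named peaks), a single mouse stood far from the other three in 11, and chance flags about 1 in 20 groups. Low mice were found at the Tulp1 peak in fed mice of 24 h (19.0 normalized reads), Fchsd2 in fed mice of 24 h (14.3), Wwc1 in mice fasted for 24 h (13.1), Acsl1 in mice fasted for 16 h (54.4), Etnppl in fed mice of 24 h (31.97) and Adamtsl4 in mice fasted for 24 h (49.1). High mice were found at Ugt2a1 in mice fasted for 16 h (10.4), Serpina3k in mice fasted for 16 h (28.9), Klf15 in mice fasted for 24 h (75.3), Neat1 in mice fasted for 16 h (26.2) and Slc15a5 in fed mice of 16 h (51.1).

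The fasted change differed from the fed change at 577 peaks upwards and 915 downwards (limma, adjusted p under 0.05), and 40 of the 74 named peaks are among them. The values that follow are log2 differences, fasted change minus fed change. Upwards they were 3.12 at Tat (+8686), 3.11 at Sds, 3.06 at Rhobtb1, 2.84 at Fubp3, 2.84 at Lpin1 (+56672), 2.79 at Got1, 2.74 at Etnk2, 2.73 at Lpin1 (+55994) and 2.47 at Alb. Smaller ones were 2.11 at Neat1, 1.55 at Gcnt4, 1.46 at Klf15, 1.42 at Apoa1, 1.29 at Alas1, 0.86 at Ass1, 0.86 at Slc27a5, 0.77 at Insig2 and 0.76 at Acsl1.

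Downwards the largest were -2.85 at Cyp3a25, -2.62 at Vcam1, -2.40 at Klf4, -2.38 at B2m, -2.35 at Tram1, -2.30 at Epor, -2.22 at Zfp655, -2.03 at Eln and -2.03 at Rgs3. Between these and the smallest lay -1.79 at Bcl6, -1.68 at Rdm1, -1.67 at Tmprss2, -1.53 at Ahr, -1.48 at Adamtsl4, -1.43 at Mical2 and -1.39 at Slc15a5. The smallest were -1.23 at Ctsl, -1.22 at Slc27a2, -1.21 at Baat, -1.14 at Jun, -0.95 at Fgf21 and -0.77 at Arrdc4.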

How the results depend on the processing

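Named peaks were checked with median centring, edgeR, the block on library numbers given below and each mouse left out, and none changed sign. In these checks the difference was read at 13 of the 74 named peaks and the fasted change at the others. Leaving out fed mice was read only at those 13. The other alternatives were not read at named peaks. The balance of rises and falls turned, however. With median centring 4249 rose and 2799 fell in fasted mice and 3399 and 2161 in fed mice, and with edgeR 3962 and 3160 and 3483 and 1797. No paired analysis was possible because the labels give the mice no shared replicate numbers. Of the fasted counts, 3487 higher and 3963 lower peaks became 1129 and 533 at 2-fold or more, 1475 and 1867 among peaks averaging 50 or more, and 2120 and 1831 when the 8 compared libraries were fitted alone. Quantile normalization gave 2431 lower. The fed counts, 2894 and 5261, became 990 and 198 at 2-fold and 1170 higher at a mean of 50. Fed falls were 2161 with median centring, 2287 with quantile normalization, 1797 with edgeR and 1522 with DESeq2, under whose size factors the median fed change was -0.02 instead of -0.13. The counts of differences, 577 and 915, became 273 and 586 at 2-fold, 306 and 352 at a mean of 50, and 318 and 412 when the 16 libraries of 16 and 24 h were fitted alone. Quantile normalization gave 379 upwards and DESeq2 1483 downwards. Leaving out each mouse in turn gave 2712 to 3925 rises and 2821 to 5013 falls in fasted mice, 2205 to 2671 and 2703 to 5224 in fed mice, and 270 to 1178 and 476 to 1687 differences. The fed promoter share changed by -1.86 points within 5 kb (exact permutation p = 0.0571) and by -2.50 to -1.59 points without single mice, where 4 against 3 cannot go below 0.0571. The cause of these shifts was not tested, apart from the stricter minimums, which test or keep fewer peaks. A block on 3 ranges of library numbers, which are no labelled batch, gave 3510 and 4015, 2895 and 5204, and 622 and 974. Of the verdicts on named peaks 902 kept their call and 16 lost it, all 16 at the difference of Lpin1 (+56672) or Alb. Most of the 40 called differences at named peaks were not covered by these verdicts, which took the fasted change there. Peaks with few reads limit the precision: single reads are large steps there, and the offset of 2 shrinks their changes.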

Other observations

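Some genes outside the lists, chosen after their values were seen, had most of their nearest peaks changed in fasted mice. Herpud1, an endoplasmic reticulum stress gene, had 13 of 16 peaks higher at 24 h in fasted mice and 7 in fed mice, with 2 differences called upwards. Noct, which encodes the rhythmic phosphatase nocturnin, had 11 of 15 higher in fasted mice and 6 in fed mice, with 0 called differences. Afp, the fetal relative of albumin next to it on the chromosome, had 8 of 9 higher in fasted mice and 0 in fed mice, and 0 of its 9 differences were called. Paqr9 had 14 of 16 lower in fasted mice and 1 in fed mice, with 5 differences called downwards, and G0s2, an inhibitor of the main triglyceride lipase, had 7 of 9 lower in fasted mice and 1 in fed mice, with 2 differences.

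Other loci had more calls in fed mice. Of 19 peaks nearest to Mir122, the host of the abundant liver microRNA, 5 fell in fasted mice and 17 in fed mice, with 4 differences called upwards. Of 9 nearest to Bhmt, a methyltransferase of methionine metabolism, 0 changed in fasted mice and 4 rose in fed mice, with 4 differences called downwards. Igfbp1, which fasting is known to induce in liver, had 0 of 4 peaks called in either feeding state.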
